A study of Homo sapiens with 6 samples.

Results

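SQSTM1, NBR1, OPTN, CALCOCO2 and TAX1BP1 encode 5 receptors that deliver cargo to autophagosomes, and MAP1LC3A, MAP1LC3B, GABARAP, GABARAPL1 and GABARAPL2 encode 5 members of the ATG8 family, to which those receptors bind. These 10 genes were chosen by name for their role in selective autophagy and were found in a table of 60709 genes by their Ensembl identifiers. All 10 reached 10 counts or more in each control library, as did 13920 of the 60709 genes. Of protein-coding genes whose coding bases overlap no other gene on the same strand, 63.9% did. SQSTM1 was the most abundant of them per transcript length and GABARAP the least. Other annotated genes cover most coding bases of GABARAP, and how reads shared between genes were counted is not given.

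The study measured messenger RNA in SH-SY5Y, an established human neuroblastoma line, by RNA sequencing. It addressed how these cells respond to a fumarate that is joined to a peptide derived from NRF2. Each of 3 control samples received 10 uL of DMSO, and each of 3 treated samples received 200 uL of a solution of 2 mg of peptide in 600 uL of water together with 10 uL of DMSO. No addition of water to the control wells is given. Both groups were grown to 80% confluence in 2 mL of DMEM/F12 with serum, and were lysed after 5 h of incubation. Count columns matched the label numbers of the 3 control samples only, which are 4, 5 and 6. The peptide-treated samples, numbered 13, 14 and 15, were not analysed here, so the values below describe controls and no effect of the peptide. The name control holds only if the column numbers are those of the labels. If the columns had been renumbered, these could be treated libraries. The labels list the 3 controls as separate samples and do not say whether the wells came from separate experiments, so the spread between them may be technical.

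In selective autophagy, a receptor holds a cargo, often tagged with ubiquitin, and at the same time binds an ATG8-family protein that is attached to lipid in the growing autophagosome membrane. The vesicle then fuses with a lysosome, and the receptor is degraded with its cargo. SQSTM1, also known as p62, further binds KEAP1, the protein that targets the transcription factor NRF2 for degradation, and SQSTM1 is itself a known NRF2 target gene. In neurons and neuron-like cells the pathway clears protein aggregates and damaged mitochondria. The values here are messenger RNA levels in whole cultures, in which fewer cells of a type and less RNA per cell cannot be told apart, and they do not measure autophagic activity.

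Library totals ranged from 8887854 to 11397407 counts. Of 12 markers of the adrenergic neuroblastoma type, 11 reached 10 counts or more in each library, and HAND2, a transcription factor of sympathetic neurons, was the highest at 914 ± 44.3 CPM (counts per 1000000 of the library total after TMM scaling, SD, n = 3). The exception was TH, which encodes tyrosine hydroxylase and was at 0 in all 3 libraries. Of 8 mesenchymal-type markers 6 passed the same minimum, led by the collagen gene COL3A1 at 316 ± 21.0 CPM, while PRRX1 was at 0. None of 4 blood markers and neither of 2 endothelial markers reached the minimum (PTPRC and VWF were the highest of each), and of 3 epithelial markers only EPCAM did, at 1.24 ± 0.22 CPM. Replicate 3 stood apart, with the lowest total and with 6.25% of its counts from mitochondrially encoded genes, against 4.11% and 3.83% in replicates 1 and 2. The mean levels of SQSTM1 and MAP1LC3B and some CVs are therefore also given without it. Other results use all 3 libraries unless stated.

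Sequences of GABARAP and MAP1LC3B bear on how their counts can be read. In GABARAP, most of the coding sequence is also covered by exons of another annotated gene. Its coding bases 31 to 150 of 351 are shown, from GENCODE release 29, with capitals for the bases that lie in exons of AC120057.2 on the same strand. The first 60 of 375 coding bases of MAP1LC3B and of its near copy MAP1LC3B2 follow, with the differing base in capitals.
GABARAP: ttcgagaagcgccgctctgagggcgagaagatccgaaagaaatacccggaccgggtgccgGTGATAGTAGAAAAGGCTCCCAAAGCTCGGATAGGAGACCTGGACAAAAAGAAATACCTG
MAP1LC3B: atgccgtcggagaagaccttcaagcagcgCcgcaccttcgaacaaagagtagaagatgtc
MAP1LC3B2: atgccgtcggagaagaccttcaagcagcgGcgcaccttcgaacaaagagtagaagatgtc
Over their whole coding sequences MAP1LC3B and MAP1LC3B2 differed at 2 positions, 30 and 338, and were 99.5% identical. A read within the coding sequence that spans neither position fits both genes.

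Promoter sequences were available for 9 members, in 14 windows that each run from 250 bases before to 50 bases after an annotated start (RefSeq, GRCh38.p14). They were searched on both strands for the core of the antioxidant response element, the NRF2 binding motif, written TGACNNNGC. It was present in 13.3% of all 35116 windows, and among the members in 1 window each of CALCOCO2 and MAP1LC3B. The first 2 sequences show these matches in capitals, at chr17:48830880-48830939 and chr16:87392264-87392323, both printed from the + strand. The CALCOCO2 match lies on the - strand, 129 bases before the start, and the MAP1LC3B match lies on the + strand, 46 bases before it. The third shows the 250 bases before a start of SQSTM1, at chr5:179820655-179820904 on the + strand, with the GC box GGGCGG, or its reverse complement, in capitals.
CALCOCO2: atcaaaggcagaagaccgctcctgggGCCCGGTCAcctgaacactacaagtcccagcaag
MAP1LC3B: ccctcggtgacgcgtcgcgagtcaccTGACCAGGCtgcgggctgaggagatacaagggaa
SQSTM1: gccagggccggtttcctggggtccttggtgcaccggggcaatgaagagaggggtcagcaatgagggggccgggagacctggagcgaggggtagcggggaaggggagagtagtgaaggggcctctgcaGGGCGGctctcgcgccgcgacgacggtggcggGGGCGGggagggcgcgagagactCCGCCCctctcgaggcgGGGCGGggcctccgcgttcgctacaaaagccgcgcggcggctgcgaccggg
The SQSTM1 stretch holds 4 GC boxes, 3 on the + strand and 1 on the - strand. GC boxes occurred in 45.0% of all windows and in 13 of the 14 member windows, covering all 9 members with a window. The E-box CACGTG, part of the motif bound by the lysosomal regulator TFEB, occurred in 7.26% of all windows and in none of the 14. These matches describe letters only, and a window without a match says nothing about binding elsewhere.

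Levels of different genes were compared as CPM per kb, the CPM divided by the length of the longest transcript in kilobases. On this scale the order was SQSTM1, TAX1BP1, GABARAPL2, MAP1LC3B, NBR1, OPTN, CALCOCO2, GABARAPL1, MAP1LC3A and GABARAP. SQSTM1, at 178 ± 19.7 CPM per kb, was 3.15 ± 0.56 times TAX1BP1 (SD of the ratio, n = 3). MAP1LC3A, next to last, was 8.80 ± 0.59 times GABARAP, an SD that understates the uncertainty at GABARAP's counting error of 19.2 to 21.8%. These pairs, and NBR1 with OPTN at 1.76 ± 0.05-fold, were the 3 of 9 neighbouring pairs whose ranges over the libraries did not overlap with either the longest transcript or the union of all exons as length. Some of the others changed order with the length used. GABARAPL2 moved above TAX1BP1, and GABARAPL1 above CALCOCO2, with both the union and the principal transcript, and MAP1LC3A moved above GABARAPL1 with the union. GABARAPL2 over MAP1LC3B, MAP1LC3B over NBR1 and OPTN over CALCOCO2 kept their order with all 3 lengths. Their ranges overlapped with the longest transcript. Among 12388 protein-coding genes that reached 10 counts in each library the median was 9.76 CPM per kb, and 9 of the 10 members lay above it.

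**Figure D1:**
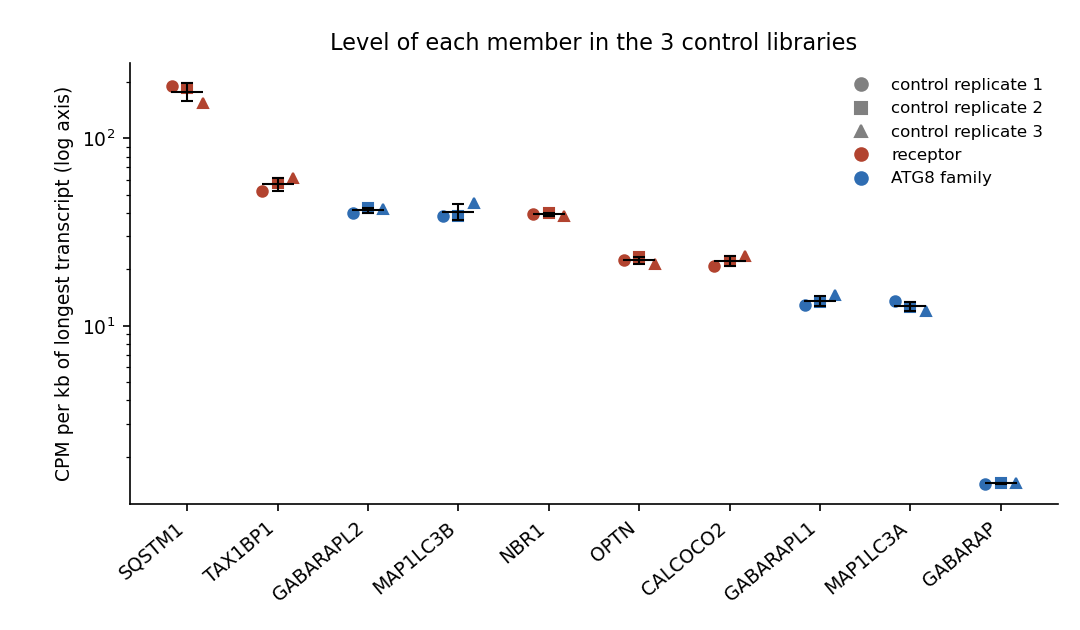
Levels of the 10 genes in CPM per kb of the longest transcript (log axis), with 1 symbol for each control library, and with the mean and SD over the 3 libraries in black. SQSTM1 lies at 155 to 192 CPM per kb and GABARAP near 1.44, with the other 8 genes between them.

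SQSTM1 (ENSG00000161011.20, chr5:179806398-179838078, + strand) gathers ubiquitin-tagged cargo into condensates. It had 6120, 6369 and 4108 counts in control replicates 1, 2 and 3, or 572, 557 and 464 CPM. Replicate 3 was the low library, and the other two differed little. The mean was 531 ± 58.7 CPM (SD, n = 3), and 565 CPM without replicate 3. Of the 12388 expressed coding genes, 98.4% lay below SQSTM1 per kb of the longest transcript. This rank was not computed with other lengths, and SQSTM1 was at 69.4 CPM per kb with the union of exons. Exons of MRNIP, on the opposite strand, cover 14.9% of the coding bases of SQSTM1, and 50.7% of the 50-base windows of its longest transcript also occur in MRNIP. MRNIP had 485, 457 and 347 counts. Whether the counting used strand is not given in the sources used here, and if it did not, reads from the shared bases cannot be told apart.

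NBR1 (ENSG00000188554.15, chr17:43170481-43211689, + strand) encodes a receptor that acts together with SQSTM1. It had 183, 186 and 180 CPM, with a mean of 183 ± 3.25. Its CV, the SD over the mean, was the lowest of the receptors at 1.77%, but with the trend in GC content removed it was 3.65% and that of CALCOCO2 was lower, at 3.41%. The error expected for NBR1 from counting alone was 2.17 to 2.51% per library, above the 1.77%. TAX1BP1 (ENSG00000106052.13, chr7:27739331-27844564, + strand) encodes a ubiquitin-binding receptor for aggregates and bacteria. It was lowest in replicate 1 and highest in replicate 3, at 211, 232 and 246 CPM, with a mean of 229 ± 17.7.

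OPTN (ENSG00000123240.17, chr10:13099449-13138308, + strand) encodes optineurin, and CALCOCO2 (ENSG00000136436.15, chr17:48830988-48866522, + strand) encodes NDP52. Both act in the removal of damaged mitochondria. OPTN had 79.3, 81.6 and 74.9 CPM in replicates 1, 2 and 3, with a mean of 78.6 ± 3.40. CALCOCO2 had 77.1, 81.8 and 86.4 CPM, with a mean of 81.8 ± 4.62. Per kb they were 22.3 ± 0.97 and 22.2 ± 1.26, and their ranges over the libraries overlapped. With the union of exons the ranges were apart, with OPTN at 15.3 and CALCOCO2 at 9.81 CPM per kb.

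SQSTM1 made up 58.6%, 56.6% and 51.8% of the summed per-kb level of the 5 receptors in replicates 1, 2 and 3, with a mean of 55.7 ± 3.50% (SD, n = 3). TAX1BP1 followed with 18.0 ± 2.22% and NBR1 with 12.3 ± 0.45%. OPTN and CALCOCO2 held 7.0 ± 0.10% and 6.99 ± 0.74%, and OPTN 10.8 ± 0.11% with the union of exons. SQSTM1 kept the highest share with each of the 3 lengths tried, at 49.0% with the union of exons and 52.0% with the principal transcript. The 5 receptors together were 2.91 ± 0.26 times the 5 ATG8-family members per kb, at 3.08, 3.05 and 2.60 in the 3 libraries. This ratio depended on the length, at 1.82 ± 0.14 with the union of exons and 1.93 ± 0.15 with the principal transcript. The ATG8-family sum includes GABARAP, for which it is not known how reads in bases shared with other genes were counted.

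**Figure D2:**
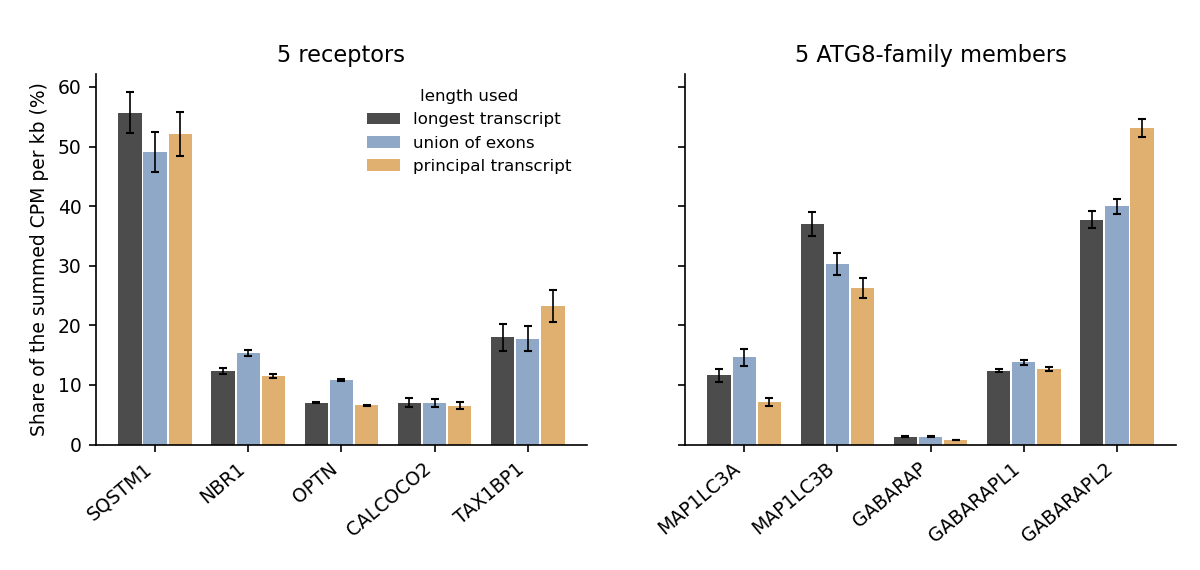
Share of each gene in the summed CPM per kb of its family (%), as the mean over 3 control libraries with SD, for 3 definitions of transcript length. SQSTM1 has the highest share of the receptors in all 3, while the share of GABARAPL2 in the ATG8 family moves from 37.8% to 53.1%.

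In the ATG8 family, GABARAPL2 (ENSG00000034713.8, chr16:75566351-75577881, + strand), also known as GATE-16, and MAP1LC3B (ENSG00000140941.14, chr16:87383995-87404779, + strand), the LC3 protein most used as an autophagosome marker, were the most abundant per kb. GABARAPL2 had 90.9, 96.4 and 95.3 CPM, with a mean of 94.2 ± 2.93. MAP1LC3B had 118, 118 and 139 CPM, with a mean of 125 ± 12.1, and of 118 without replicate 3. For MAP1LC3B, replicates 1 and 2 were nearly equal and replicate 3 was higher. The per-kb ratio of MAP1LC3B to GABARAPL2 was 0.98 ± 0.09 with the longest transcript and 0.50 ± 0.04 with the principal transcript, and the table does not resolve transcripts.

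MAP1LC3B2 had 3, 14 and 2 counts against 1267, 1351 and 1234 for MAP1LC3B. It shares 6.88% of the 50-base windows of the longest MAP1LC3B transcript, and its counts are uncertain for that reason. MAP1LC3C and GABARAPL3 had 0 counts in every library, which does not exclude a low level. GABARAPL3 shares 0.98% of the 50-base windows of the longest GABARAPL1 transcript, so its count is uncertain for the same reason.

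GABARAPL1 (ENSG00000139112.11, chr12:10212458-10223130, + strand) and MAP1LC3A (ENSG00000101460.13, chr20:34546854-34560345, + strand) were lower. GABARAPL1, the closest relative of GABARAP by sequence among the members (76.6% of coding bases identical), had 41.5, 43.0 and 46.9 CPM, with a mean of 43.8 ± 2.76. MAP1LC3A, which is 71.2% identical to MAP1LC3B, had 21.2, 19.9 and 18.9 CPM, with a mean of 20.0 ± 1.19. GABARAPL1 was highest in replicate 3 and MAP1LC3A lowest there, and per kb their ranges over the libraries overlapped. The per-kb ratio of MAP1LC3B to MAP1LC3A was 2.85, 3.04 and 3.77 in the 3 libraries, and 1.85, 1.97 and 2.45 with the union of exons.

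GABARAP (ENSG00000170296.10, chr17:7240014-7242770, - strand), the founding member of its subfamily, had 25, 27 and 21 counts. These are 2.34, 2.36 and 2.37 CPM, or 1.44 ± 0.01 CPM per kb, and 11.7% of expressed coding genes lay lower. Its CV was 0.74%, far under the counting error of 19.2 to 21.8% for counts of this size, so the SD understates the uncertainty of this level. GABARAPL2 was 28.7 ± 0.71 times and MAP1LC3B 28.2 ± 2.58 times GABARAP per kb. With the principal transcript these ratios were 65.2 ± 1.61 and 32.3 ± 2.96. GABARAP made up 1.31 ± 0.05% of the summed ATG8-family level, and 0.81 ± 0.03% with the principal transcript. The SDs of these ratios and shares understate their uncertainty in the same way.

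GABARAP was also the member with the most overlap with other annotated genes. In GENCODE release 29, exons of AC120057.2 on the same strand cover 261 of its 357 annotated coding bases, or 73.1%, as in the capital letters of the stretch shown above. Exons of AC120057.3 on the other strand cover a further 90, and together the 2 genes cover 351 bases, or 98.3%. AC120057.2 had 0 counts in every library, and AC120057.3 had 14, 10 and 6. No other member had another gene on the same strand over its coding bases, and of the other 9 members only SQSTM1 and TAX1BP1 (5.47%, JAZF1) had any coding overlap on the other strand.

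How reads in exons of more than 1 gene were counted, and with which annotation release, is not given in the sources used here. The part of the overlap in the low GABARAP count was not tested. Of 17508 coding genes with no same-strand coding overlap, 63.9% reached 10 counts in each library, with a median of 12.8 CPM over all of them. Of 1328 genes with 50% or more of their coding bases covered, 33.8% did, with a median of 0.09 CPM. The groups were not matched for kind of gene or level, and both genes of an overlapping pair can be among them. What overlap does to a count was not tested. In the pathway lists described below, 4 genes had at least 50% covered, and they are given as values only, named after these were seen. CTSD, a lysosomal protease gene with 87.8% of its coding bases covered on the same strand, had 52.8 ± 2.04 CPM, and VPS33A, a tethering subunit for lysosomal fusion with 78.0% covered, had 23.6 ± 1.66. CCPG1 and STBD1, which encode receptors for endoplasmic reticulum and glycogen, had 91.0% and 79.5% covered and 9.10 ± 2.04 and 2.37 ± 0.87 CPM.

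**Figure D3:**
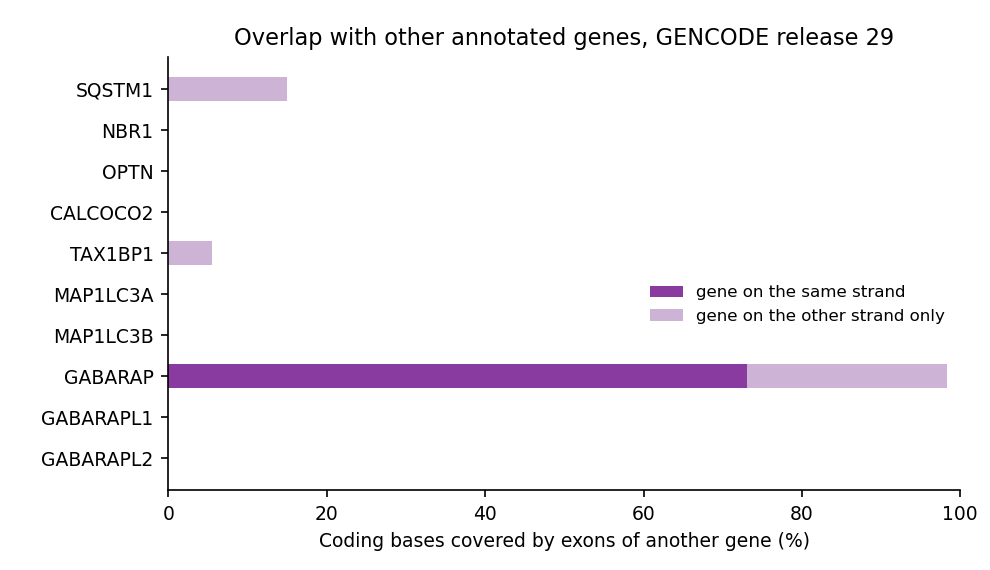
Share of annotated coding bases (%) of each of the 10 genes that lie in exons of another gene, on the same strand (dark) or only on the other strand (light). GABARAP reaches 98.3%, SQSTM1 14.9% and TAX1BP1 5.47%, and the other 7 genes are at 0.

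The median CV of the members between control libraries was 5.80%, against 8.69% over the 13920 genes that reached 10 counts in each library, which is not matched for count. Beside genes within 2-fold of the same mean count, the CV of 3 members lay in the upper part of the range. These were SQSTM1, MAP1LC3B and TAX1BP1. SQSTM1 had the highest CV of the 10, 11.1%, which was above that of 92.2% of its 523 matched genes. MAP1LC3B followed with 9.67%, above 78.9% of 3591, and TAX1BP1 with 7.71%, above 69.1% of 1872. The CVs of CALCOCO2 and GABARAPL1 were above 41.3% and 40.2% of their matched genes, and those of the other 5 members above 0.040 to 27.1%. Replicate 3 set the values of SQSTM1 and MAP1LC3B. Without it the CV of SQSTM1 was 1.87% and that of MAP1LC3B 0.15%, and the median of the 10 was 2.21%. The 0.15% is far under the counting error of MAP1LC3B, 2.72 to 2.85% per library, so it understates the spread. With all libraries, the CVs of NBR1, MAP1LC3A and GABARAP also lay under their counting errors.

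SQSTM1 and MAP1LC3B moved in opposite directions in replicate 3. On the log2 scale SQSTM1 was at -0.28 and MAP1LC3B at 0.24 relative to the mean of replicates 1 and 2. Of the 10 members, 6 were higher and 4 lower in replicate 3, with a median of 0.02, while 48.1% of all 13920 genes were higher and 51.9% lower, with a median of -0.01. A value as low as that of SQSTM1 was seen in 11.7% of these genes. The 4 lower members were SQSTM1 and MAP1LC3A, which have the highest GC content of the 10 (58.0% and 64.5%), and OPTN and NBR1, at -0.10 and -0.04, which have a GC content of 44.8% and 44.9%.

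Each value was also recomputed with the trend in GC content across genes removed from each library. SQSTM1 then had 541, 548 and 499 CPM, and its value in replicate 3 shrank to -0.13 and its CV to 5.03%. A value as low as that was then seen in 20.8% of the 13920 genes. OPTN and NBR1 moved further down, to -0.15 and -0.09, so that OPTN was the lowest of the 10. MAP1LC3A changed sign, from -0.12 to 0.10, and GABARAPL2 from 0.03 to -0.08. MAP1LC3B stayed high in replicate 3, at 116, 118 and 142 CPM, with 0.28 in place of 0.24. TAX1BP1 and GABARAPL1, at 0.15 each before, were both at 0.17. The removal lowered the CV of 3 of the 10 members, SQSTM1, CALCOCO2 and MAP1LC3A, and raised that of the other 7.

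**Figure D4:**
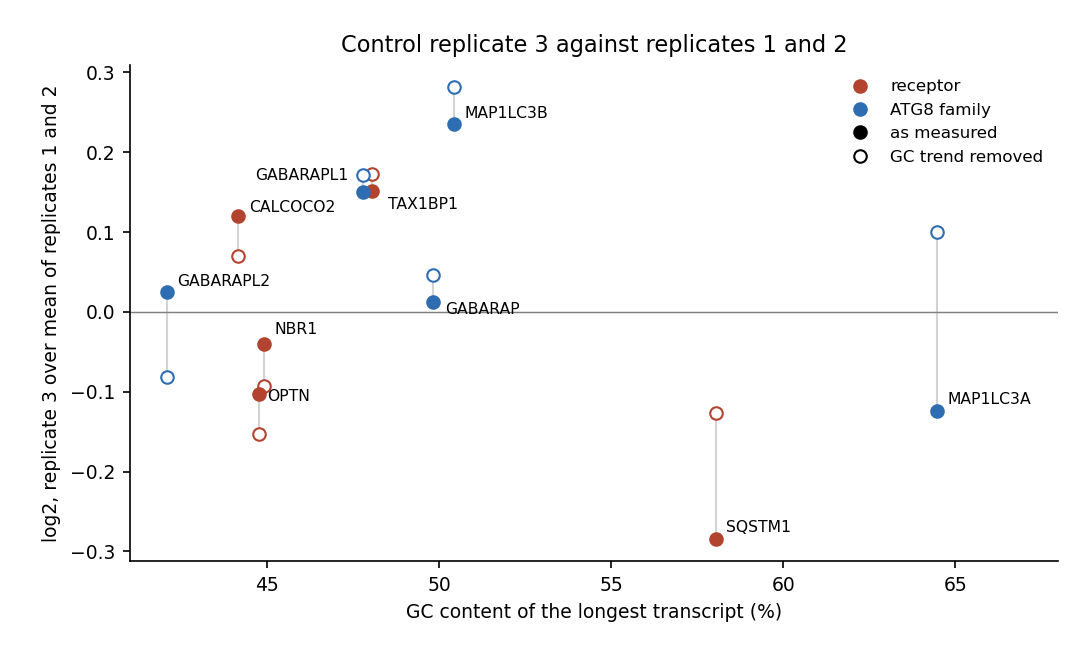
Level in control replicate 3 relative to the mean of replicates 1 and 2 (log2) against the GC content of the longest transcript (%), for the 10 genes as measured (filled) and with the GC trend removed (open). SQSTM1 moves from -0.28 to -0.13, while MAP1LC3B moves from 0.24 to 0.28.

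SQSTM1 was set beside the genes of the NRF2 system that it connects to. KEAP1 had 45.3 ± 4.23 CPM per kb and NFE2L2, which encodes NRF2, had 34.7 ± 5.97. The ratio of SQSTM1 to KEAP1 per kb was 4.05, 3.89 and 3.85 in replicates 1, 2 and 3, and thus nearly constant, since both were lower in replicate 3. The ratio to NFE2L2 was 6.33, 5.76 and 3.74, as NFE2L2 was higher and SQSTM1 lower in replicate 3, and with the GC trend removed it was 5.94, 5.67 and 4.07. The size of the KEAP1 ratio depended on the length, at 3.93 ± 0.11 with the longest transcript and 1.95 ± 0.05 with the union of exons. The ratio of SQSTM1 to NBR1 was 4.87, 4.67 and 4.03, and with the GC trend removed it was 4.52, 4.58 and 4.44.

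The 5 genes whose CPM in the 3 libraries was closest to that of SQSTM1 were MYH9, SF3B2, KIF1A, RPS21 and BSG. Closeness was the root mean square difference in log2(CPM + 1), which was 0.028 for MYH9, a nonmuscle myosin gene, and for SF3B2, a splicing factor gene. It was 0.051 for KIF1A, an axonal motor gene, 0.059 for RPS21, a ribosomal protein gene, and 0.064 for BSG, which encodes basigin. The choice by likeness fixes that these genes, too, were lower in replicate 3. Over 3 libraries of 1 group it describes level and spread only.

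Most other genes of the pathway lists passed the same minimum. Among coding genes with no same-strand coding overlap, 63.9% passed it. Of 89 other genes in 9 lists, 85 reached 10 counts in each library, and 87 had a lower per-kb level than SQSTM1. The exceptions were PHB2, a mitochondrial inner membrane receptor, at 220 ± 10.4 CPM per kb, and CTSB, a lysosomal protease, at 211 ± 12.6. These ranks hold for the longest transcript and were not computed with other lengths. The median level of the 10 members was 88.4 ± 2.95 CPM per library, not scaled for length.

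Upstream of the ATG8 family, all 5 genes of the ULK initiation complex passed the minimum, from RB1CC1 at 11 to ATG13 at 31.9 CPM per kb. All 8 of the class III PI3K complex passed, from ATG14 at 3.16 to AMBRA1 at 16.0. All 8 of the ATG9 and lipid transfer list did too, from ATG9B at 0.62 to WDR45B at 70.2. The 10 genes that conjugate ATG8 proteins to lipid or cleave them ranged from ATG4C at 2.96 to ATG4B, the main ATG8 protease, at 30.2 CPM per kb. GABARAPL2 and MAP1LC3B, at 41.4 ± 1.29 and 40.6 ± 3.93 CPM per kb, lay above every gene of this last list, and GABARAP lay below every one. This holds for the longest transcript, and the list was not recomputed with other lengths. With the union of exons MAP1LC3B was at 23.6 CPM per kb. For GABARAP, how reads shared with other genes were counted is not known.

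Among 17 other cargo receptors, all above the minimum, per-kb levels ran from STBD1 at 0.69 to PHB2. The 10 receptor kinases and SQSTM1 partners ran from CYLD, a deubiquitinase, at 8.68 to KEAP1. Of 14 lysosome biogenesis and fusion genes 13 passed, and the highest was VPS39, a tethering subunit, at 47.3 CPM per kb. The exception was VAMP8, a fusion protein of the autophagosome-lysosome step, with 0, 1 and 3 counts. The 15 lysosome membrane and protease genes all passed, from HEXA at 4.40 CPM per kb to CTSB.

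**Figure D5:**
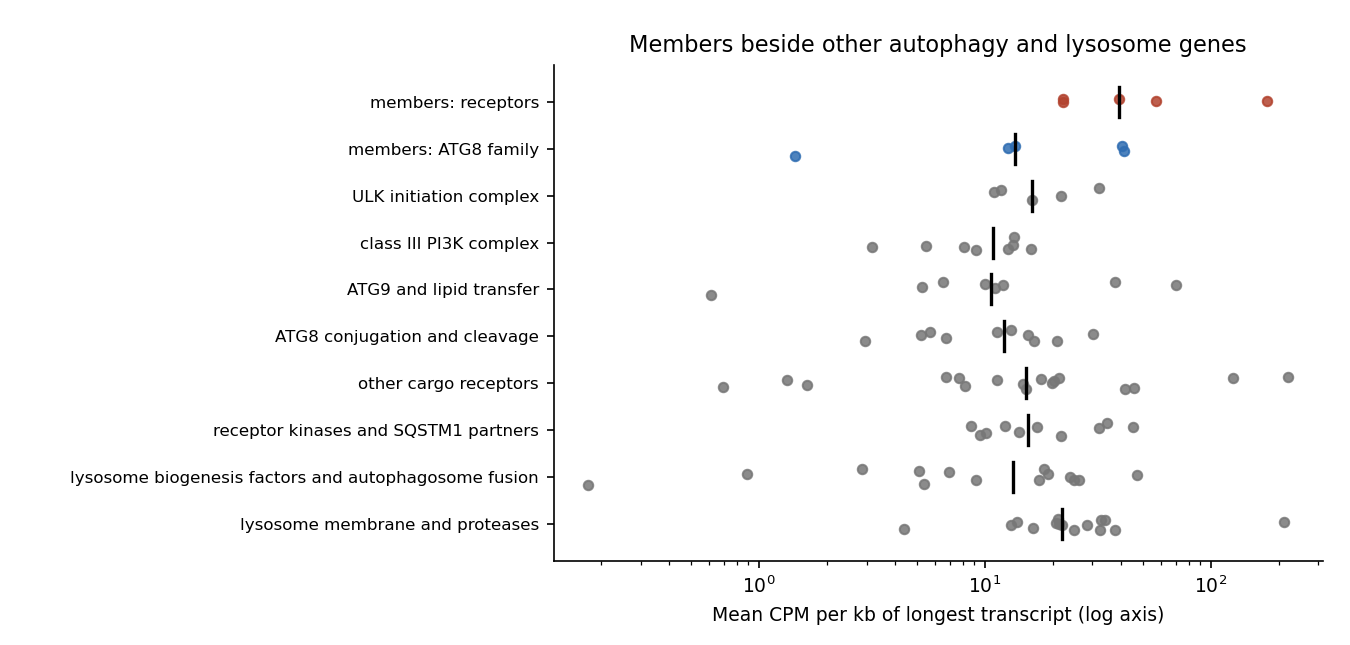
Mean CPM per kb of the longest transcript (log axis) over 3 control libraries, with 1 point for each gene and a bar at the median of each list, for the receptors (red), the ATG8-family members (blue) and 8 lists of other autophagy and lysosome genes (grey). SQSTM1 lies above all grey points except PHB2 and CTSB, and GABARAP lies at 1.44.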

How the data were processed

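RNA sequencing libraries were prepared from total RNA of SH-SY5Y cells with a stranded mRNA kit, per the labels' protocols. Raw counts for each Ensembl gene, whole numbers that were not normalized, were deposited by the authors as 1 table, per the file headers. The submitters' processing notes name fastp 0.21.1, STAR 2.7.7a, featureCounts and GRCh38. The annotation release, the strand setting and the treatment of reads shared between genes are not given in the sources used here. Of 60710 genes listed, ANK2 has a broken entry, with 2 lines that name no gene and no usable value. The remaining 60709 genes were used, and 60480 of them matched a symbol by identifier. Columns 4, 5 and 6 match the numbers of the control samples. The other 3 columns match no sample and were not used, so no comparison between groups was made and no p-value is given.

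Counts were scaled to CPM, counts per 1000000 of the library total multiplied by a TMM factor from edgeR 4.0.16 in R 4.3.3, and divided by the length of the longest GENCODE release 29 transcript in kb, which may differ from the authors' annotation. Coordinates are those of that release on GRCh38. Means and SDs are over 3 libraries. Neighbours in the order were called apart where their ranges did not overlap with the longest transcript and with the union of exons. The GC trend was the median deviation from each gene's mean in 50 bins, per library. Its removal and the CV calculation were run on simulated data with a linear GC trend, and the outcome is not given here. The trend in the real libraries may take another form. Alternatives were RLE factors, library size alone, TMM on genes with at least 10 counts, totals without mitochondrial genes, removal of the GC trend, the union of exons, lists limited to genes with at least 10 counts, and omission of each library. The principal (APPRIS) transcript as length and the family without GABARAP were added after seeing the data. Named were all members, the 5 genes nearest to SQSTM1, the highest and lowest gene of each list per kb, KEAP1, NFE2L2 and the highest marker of each type. Outside this rule, CTSD, VPS33A and CCPG1 were named for their overlap, TH and PRRX1 for being at 0, and genes that share bases with a member for that, all after their values were seen. The 10 members and all lists were chosen with earlier results of these data known. Python 3.11.15, numpy 2.4.6, pandas 2.3.3, matplotlib 3.10.9 and Biopython 1.88 were used.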

Additional observations from a re-analysis of the deposited data

How the results depend on the processing

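Of 430 recomputed values for 52 results, 371 moved by no more than a set limit and 59 moved further. The limit was 1 SD between libraries for a level or share, 1 SD of the 3 leave-one-out values for a CV, and 1.5 times for the number of pairs apart. Omission of 1 of 3 libraries cannot move a mean level or share by more than 1 SD. Those values were within the limit by construction and say nothing about stability. The same holds for the 7 lists in which every gene already had at least 10 counts. With the principal transcript, the per-kb levels of SQSTM1, NBR1, CALCOCO2, MAP1LC3A and GABARAP could not move either, since their length stayed the same. Of the 59, 17 came from the union of exons, 15 from totals without mitochondrial genes and 12 from the principal transcript. The median level of the 10 members was 88.4 CPM, and 92.8 CPM with mitochondrial genes left out. The share of SQSTM1 among the receptors was 55.7%, against 49.0% with the union of exons and 52.0% with the principal transcript. The share of MAP1LC3B in the ATG8 family was 36.9%, against 30.3% and 26.3% with those lengths. With each library left out in turn, the median CV ran from 2.21%, without replicate 3, to 8.17%, the SQSTM1 share from 54.2 to 57.6%, the MAP1LC3B share from 35.8 to 37.7% and the median level from 87.1 to 90.0 CPM. With the longest transcript alone, 5 of 9 neighbouring pairs were apart, against 6 or 7 with a library left out. Ranges over fewer libraries are narrower, so more pairs tend to be apart there. Without replicate 3 the CV of OPTN went from 4.33 to 1.99%, of GABARAPL1 from 6.31 to 2.42% and of NBR1 from 1.77 to 1.06%. Without replicate 1 that of TAX1BP1 went from 7.71 to 4.15%, of GABARAPL2 from 3.11 to 0.83%, of MAP1LC3A from 5.95 to 3.67% and of GABARAP from 0.74 to 0.26%. Except for TAX1BP1, these genes then had a CV under their counting error. No paired analysis was possible because only 1 group had matched columns. Depth limits GABARAP, at 21 to 27 counts, more than any other member, and counting error alone is about 20.0% there.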
